A study of Drosophila melanogaster with 6 samples.

Results

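A CG number is the provisional symbol that the Drosophila genome project gave to a predicted gene, and many genes still carry no other name. On the array used here 5209 of 11982 genes were named by a CG number alone, and 91 of them (1.75%) were lower in embryos without CrebA. These 91 genes are described here. They were selected on the genotype difference itself. Each gene was read from 1 probe set, the brightest on average of those assigned to it alone, and a gene was kept where the mean of the CrebA null mutants minus the mean of wild type was -0.8 or less on the log2 scale and all 3 mutant values lay below all 3 wild-type values. Their differences and the lack of overlap are therefore a description of what was chosen. Counts of limma calls among them are given with the background share and are not used as support.

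The arrays, of the Affymetrix Drosophila Genome 2.0 type, compared total RNA of whole embryos in 2 genotypes, wild type and CrebA null mutant, with 3 arrays each. Embryos of both genotypes were collected for 8 h, aged for 11 h and passed through a COPAS biosorter, which sorts whole embryos, and mutant embryos were picked by the absence of a GFP-marked balancer chromosome. The titles, however, call only the mutant samples sorted. Whether handling differed between the genotypes was not tested, and such a difference could not be told apart from genotype. The labels place the embryos between stage 11 and stage 15 in one field and up to stage 17 in another. They name neither the CrebA allele nor the wild-type strain, and they do not state whether replicates are separate collections of embryos, so the spread between arrays may be technical.

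CrebA is a bZIP transcription factor of the CREB3 family, whose members are known for switching on genes of the secretory pathway in cells that export much protein. In that pathway a growing chain is threaded into the endoplasmic reticulum (ER) through the Sec61 translocon, folded and glycosylated there, and carried to the Golgi in coated vesicles. In the fly embryo CrebA is known from the salivary gland, the trachea and the epidermis that lays down the larval cuticle. The annotation gives the 91 genes no names. Roles stated below are background knowledge, mostly from relatives in other animals or yeast, and were not measured here. Since whole embryos were used, fewer cells of a type and less RNA per cell cannot be told apart. The level of CrebA itself was not analysed here, as the annotation assigns it no probe set, and no other check of the genotype labels was made. Whether a probe set without a gene in the annotation reads CrebA was not examined.

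Values are expression values on a log2 scale, on which a difference of -1 is a halving, and they ran from 2.81 to 14.53 with array medians of 5.47 to 5.58. The replicate 2 arrays stood apart in both genotypes. Within a genotype, arrays paired with replicate 2 differed from it by a standard deviation (SD) of 0.390 to 0.524 over probe sets, against 0.226 and 0.251 for replicates 1 and 3. As a guide to background, 17 control probe sets foreign to the fly were used, the highest of which read 4.71 to 5.28 on the 6 arrays. Signals of different probe sets do not rank transcript amounts, so each gene is compared between genotypes on its own probe set. For tissue markers a sum over genes is given too, which is set mostly by the brightest gene.

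The differences of the 91 genes ran from -2.82 to -0.80 with a median of -1.09, or 1.74-fold to 7.05-fold with a median of 2.13-fold, against a median of -0.02 over all 5209 CG genes. Of the 91, 8 had differences below -2, 10 between -2 and -1.5, 38 between -1.5 and -1 and 35 between -1 and the threshold. Wild-type means ran from 4.48 to 13.24. The chosen genes were 7 of 2802 CG genes (0.250%) with a wild-type mean under 6, 32 of 1125 (2.84%) between 6 and 8, 40 of 1042 (3.84%) between 8 and 10, and 12 of 240 (5%) above 10. The share was thus lowest among the dimmest genes, and this order was not tested. The rule itself used the wild-type mean, and a signal near background has little room to be lower by 0.8. Nothing is therefore read from the order.

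**Figure D1:**
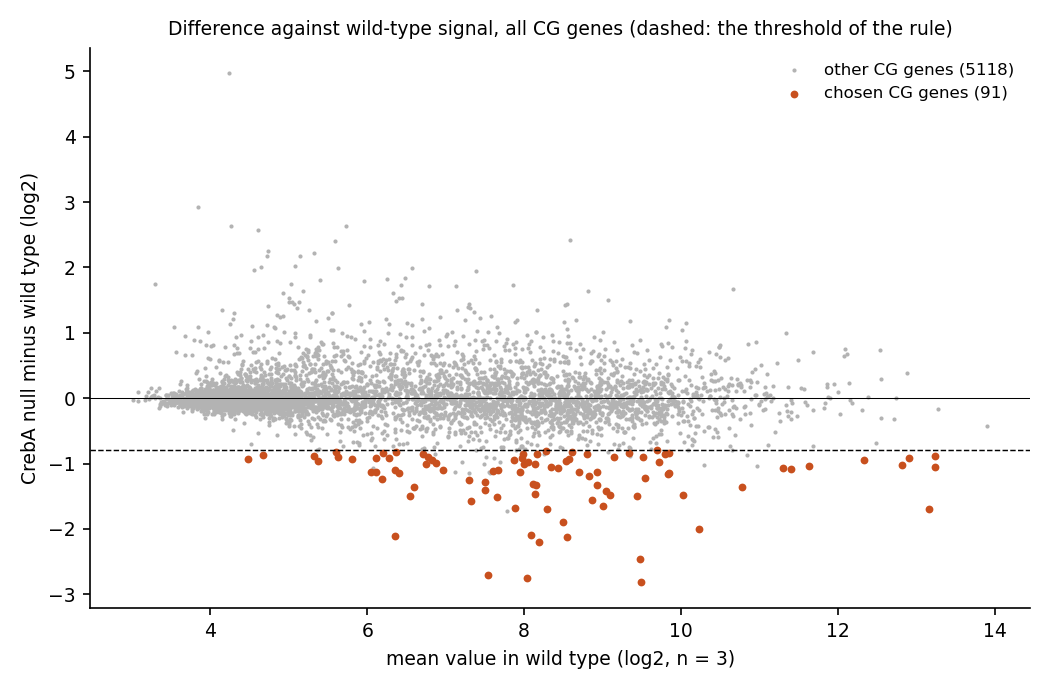
Mean of wild type (x, log2, n = 3) against CrebA null minus wild type (y, log2) for all 5209 CG genes, with the 91 chosen genes coloured and the threshold of -0.8 dashed. The chosen genes lie at wild-type means from 4.48 to 13.24, and grey points below the dashed line are the 19 CG genes whose genotypes overlapped.

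In the limma fit over all 18769 probe sets, with Benjamini-Hochberg adjustment, 35 of the 91 genes had an adjusted p under 0.05 and were called lower, beside 0.902% of all CG genes and 1.02% of all 11982 genes. With the replicate number as a block 90 of the 91 were called, beside 8.24% of all CG genes. Of all CG genes 10.6% had 3 mutant values below the 3 wild-type values, and 2.11% had a difference of -0.8 or less. The rule used this contrast, so nothing is read from these counts. The number of arrays limits the precision.

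Among the chosen genes whose relatives have a known place, 7 belong to the early secretory pathway. Their differences ran from -1.16 to -0.86 with a median of -1.05. At entry into the ER, CG8860, a gamma subunit of the Sec61 translocon, read 12.92, 13.04 and 12.78 in wild type replicates 1 to 3 and 11.94, 12.19 and 11.88 in the mutants. CG5885, known in vertebrates as the gamma subunit of the translocon-associated protein complex, read 12.81, 13.11 and 12.53 against 11.66, 12.12 and 11.63. CG32276, of the SERP family of small ribosome-associated ER membrane proteins, read 13.25, 13.28 and 13.18 against 12.26, 12.33 and 11.96. In each of these 3 genes the highest mutant array was replicate 2, and it still lay 0.41 to 0.85 below the lowest wild-type array.

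Of the genes for folding in the ER, CG9302, of the protein disulfide isomerase family, read 9.65, 10.10 and 9.76 in wild type and 8.68, 9.15 and 8.19 in the mutants. The DnaJ-domain gene CG7872, a relative of vertebrate DNAJC25, had a smaller difference, from 9.80 ± 0.17 to 8.94 ± 0.27 (SD, n = 3). CG4293 and CG7011 belong to the Erv41 and Erv46 family, known in yeast and vertebrates as cargo receptors that cycle between ER and Golgi. CG4293 read 8.72, 8.94 and 8.46 against 7.49, 7.81 and 7.44, a 2.18-fold difference. CG7011 differed 2.18-fold as well, with a wider spread, from 8.93 ± 0.40 to 7.80 ± 0.50. The probe set of CG4293 is of a type that can bind transcripts of more than 1 gene.

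**Figure D2:**
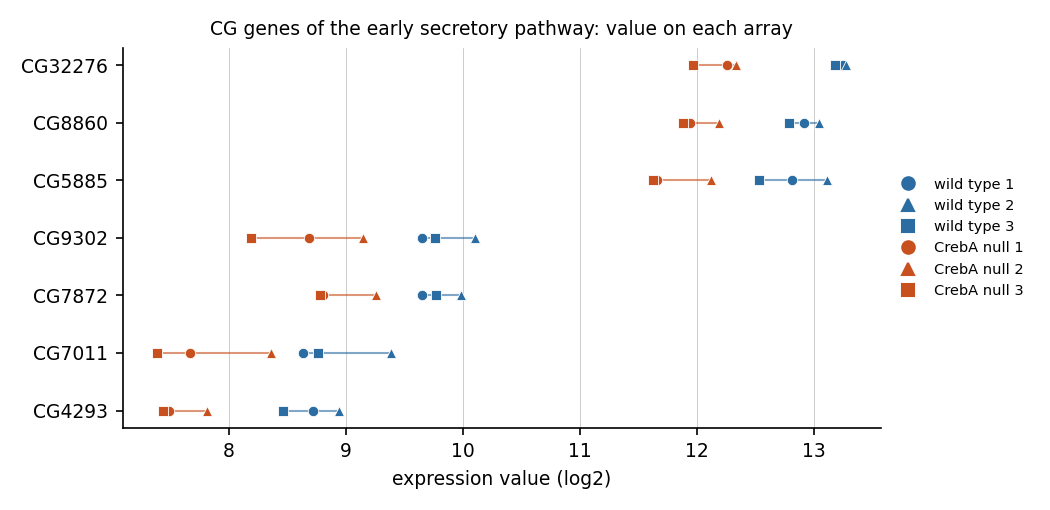
Values on each array (x, log2) of the 7 chosen CG genes of the early secretory pathway, blue for wild type and orange for CrebA null, with circle, triangle and square for replicates 1, 2 and 3. In every gene shown the genotypes do not overlap, as the rule demanded, and replicate 2 is the highest array of each genotype.

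To set these genes beside others of the pathway, a list of 14 secretory genes known by CG numbers was used, of which 8 now carry a name or missed the rule. All 14 were measured, and 6 of them are chosen genes, whose sign and size the rule fixed. The 8 others all had a negative difference, with a median of -0.66 against -0.02 over all genes. Of these 8, limma called 2 lower and 0 higher, and 7 lower and 0 higher with the replicate block, beside 9.21% of all genes called lower with the block. Sec61gamma, the second gamma subunit gene, read 12.45 ± 0.30 in wild type and 11.39 ± 0.31 in the mutants (-1.06). The Golgi membrane protein genes Yif1, CG3652, CG4645 and Yip1d1, which belong to families that take part in ER to Golgi traffic, had differences of -0.90, -0.71, -0.67 and -0.64. The relative of vertebrate dymeclin CG8230 had a difference of -0.60 and the relative of vertebrate TMEM115 CG9536 one of -0.43. The smallest difference of the list was that of GCS2beta, the beta subunit of glucosidase II, at -0.31. The 2 called without the block were Yif1 and CG8230. A second list of 49 named early secretory genes, which also holds Sec61gamma and of which 40 were measured, had 40 negative differences, a median of -0.92, 16 genes called lower and 0 called higher. With the block 38 of the 40 were called lower. The lists were drawn up knowing what earlier work on these data had found and are no independent evidence.

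The largest difference of all 91 was in CG7945, listed as BAG2 among the RefSeq synonyms, a co-chaperone that acts on Hsp70 proteins in vertebrates. It read 9.54, 9.36 and 9.57 in wild type and 6.67, 7.07 and 6.27 in the mutants, a 7.05-fold difference, and the genotypes were 2.29 apart at their closest. CG18088 read 8.63, 7.31 and 8.16 against 5.52, 4.87 and 5.47. CG8100 read 7.89, 7.52 and 7.22 against 4.997, 4.75 and 4.76. One mutant array of each lay within the foreign controls, so their folds of 6.72 and 6.53 rest on mutant signals near background.

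CG17290 followed at -2.45, with the widest spread of the set. It read 10.38, 7.85 and 10.22 in wild type and 7.26, 6.15 and 7.68 in the mutants. Wild type replicate 2 lay 0.17 above the highest mutant array, so the separation of this gene is slight, while the arrays numbered 1 and 3 differed by -3.12 and -2.54. CG14453 read 8.44, 7.52 and 8.61 against 5.98, 5.80 and 6.21, again with replicate 2 lowest in wild type. CG5402 read 8.70, 8.17 and 8.78 against 6.17, 6.50 and 6.60, and CG13738 8.33, 7.86 and 8.07 against 5.91, 6.17 and 5.89. Both differed 4.37-fold and 4.28-fold with at least 1.57 between the genotypes.

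CG42335, of the M1 aminopeptidase family, read 6.34, 6.15 and 6.59 in wild type and 4.25, 4.19 and 4.34 in the mutants. All its mutant values lay within the foreign controls, so it was at least 2.91-fold lower. CG31313, of the cystatin family of protease inhibitors, read 10.07, 10.80 and 9.80 against 7.99, 8.75 and 7.94, with the genotypes 1.05 apart. CG18343 differed 3.73-fold, CG14105 3.25-fold, CG32073 3.19-fold, CG15743 3.14-fold and CG7567 2.99-fold. Of these CG7567 had the tightest arrays, with 7.32 ± 0.10 in wild type and 5.74 ± 0.14 in the mutants. CG14756 combined a large difference with one of the highest signals of the set, reading 13.24, 13.30 and 12.95 against 11.37, 11.82 and 11.22.

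**Figure D3:**
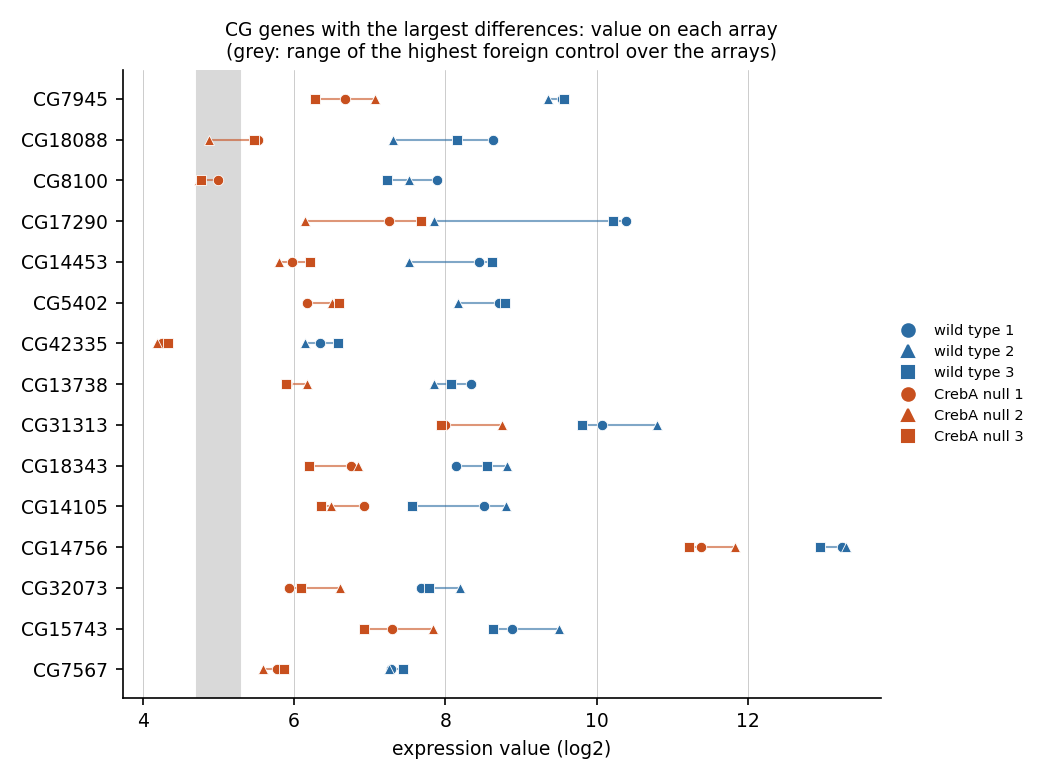
Values on each array (x, log2) of the 15 chosen CG genes with the largest differences, symbols as for the secretory genes, with the range of the highest foreign control (4.71 to 5.28) in grey. CG17290 spans 6.15 to 10.38 and its genotypes nearly touch, whereas CG7945 is 2.29 apart, and the mutant values of CG42335 lie left of the grey band.

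A group of 8 genes belongs to families of hydrolases and protease inhibitors that are often secreted or bound to membranes, CG42335 and CG31313 among them. CG9449, of the histidine acid phosphatase family, read 9.40, 9.91 and 8.99 in wild type and 7.96, 8.38 and 7.49 in the mutants. The lysozyme family gene CG16799 read 7.48, 7.75 and 7.26 against 6.13, 6.17 and 5.98. CG10116, of the pancreatic lipase family, read 8.01, 8.49 and 7.85 against 6.87, 6.80 and 6.75, with a mutant SD of 0.06. The zinc carboxypeptidase family gene CG18585 read 8.71, 8.99 and 8.78 against 7.61, 7.65 and 7.68. CG5276, of the apyrase family, had the smallest difference of the group, from 8.61 ± 0.04 to 7.79 ± 0.22. The group's differences ran from -2.10 to -0.82. It also holds CG8539, a second zinc carboxypeptidase family gene, whose 6 values, from 3.68 to 4.95, all lay within the foreign controls, so no fold is given for it.

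Other enzymes, mostly metabolic, made up 7 genes, with differences from -1.56 to -0.83. CG31809, of the short-chain dehydrogenase family, read 8.64, 9.53 and 8.41 in wild type and 6.98, 7.77 and 7.14 in the mutants. CG9698, of the family of prolyl 4-hydroxylase alpha subunits, which act on collagen-like proteins in the ER, read 6.68, 6.77 and 6.19 against 5.07, 5.29 and 4.78. It was counted here and not with the early secretory genes. The aldose 1-epimerase family gene CG10467 had the closest replicates of the group, 8.14 ± 0.05 and 7.14 ± 0.06, for a 2.00-fold difference. CG10512, of the malate and lactate dehydrogenase family, read 9.72 ± 0.42 against 8.74 ± 0.17, and the aminotransferase family gene CG11241 8.16 ± 0.50 against 7.30 ± 0.34 with the genotypes 0.02 apart. The fatty acid elongase family gene CG9459 was at least 1.42-fold lower, with all mutant values within the foreign controls. CG9961, of the phosphoglycerate kinase family, read 5.23, 6.12 and 5.45 against 4.81, 4.88 and 4.62, with 2 mutant values within them.

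The transporter genes CG8249, of the sugar porters, and CG13795, of the neurotransmitter symporters, read 6.97 ± 0.29 against 5.87 ± 0.01 and 7.88 ± 0.25 against 6.93 ± 0.15. CG18661, which the RefSeq synonyms list as METTL26, read 7.51 ± 0.44 against 6.22 ± 0.25. CG5174, of the tumour protein D52 family, read 11.23, 11.43 and 11.54 in wild type and 10.22, 10.48 and 10.28 in the mutants.

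Besides CG14756, CG32276, CG8860 and CG5885, the highest signals belonged to CG10591 and CG14110. CG10591 read 13.34, 13.36 and 13.03 in wild type and 12.60, 12.63 and 11.85 in the mutants, so that mutant replicate 3 lay below the other mutant arrays. CG14110 read 12.56, 12.18 and 12.27 against 11.68, 11.33 and 11.15, a 1.93-fold difference.

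Of the 91 genes, 6 had all mutant values within the foreign controls. Besides CG42335, CG9459 and CG8539 these were CG10514, at least 1.76-fold lower, CG1077, at least 1.47-fold lower, and CG31191. The last read 4.71, 3.77 and 4.94 in wild type and 3.59, 3.48 and 3.59 in the mutants, with 2 wild-type values within the controls as well, and no fold is given. A further 6 genes had 1 or 2 mutant values there, and 79 had none.

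The other 36 genes are given by name and range. A difference of -1.52 to -1.33 was found in CG32302, CG1273, CG13064, CG15362, CG17271, CG17110 and CG1418. Among these 7, CG17110 read 6.68, 6.50 and 6.63 in wild type and 5.26, 5.21 and 5.28 in the mutants, the tightest arrays of the 7, while CG13064 read 9.11, 9.77 and 8.40 against 7.60, 8.29 and 6.97 with the genotypes 0.11 apart. In CG13064 the differences between arrays numbered 1, 2 and 3 were nevertheless alike, at -1.52, -1.48 and -1.43. CG17271 read 11.06, 10.49 and 10.79 against 9.61, 9.22 and 9.45.

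Differences from -1.24 to -1.005 were found in 15 more, CG42822, CG7137, CG13362, CG32483, CG8089, CG43117, CG34224, CG6912, CG7300, CG14720, CG5039, CG12384, CG8420, CG33272 and CG33093. Their wild-type means ran from 6.05 to 11.64 and their genotypes were 0.29 to 0.74 apart. The last 14, CG15905, CG12880, CG32281, CG42819, CG2812, CG11052, CG33003, CG14400, CG14265, CG30291, CG13082, CG7465, CG8613 and CG4194, had differences from -0.99 to -0.84 and genotypes 0.0028 to 0.57 apart. CG15905 read 7.03, 6.98 and 6.62 in wild type and 6.05, 5.998 and 5.61 in the mutants, nearly the same difference for each replicate number.

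The genes just inside the threshold were CG7556 (-0.80), CG6983 (-0.80), CG5276 (-0.82), CG13949 (-0.82), CG9961 (-0.83) and CG5335 (-0.84). Just outside it, with no overlap either, lay CG42694 (-0.80), CG6785 (-0.80), CG10621 (-0.79), CG17562 (-0.79), CG17026 (-0.78) and CG32243 (-0.78). With more digits CG7556 was at -0.8002 and CG42694 at -0.7989, so no gap in the values marks the edge of the set. A further 19 CG genes had a difference of -0.8 or less with overlapping genotypes, from -1.72 in CG13679 to -0.82 in CG13912. In CG13679 wild type read 8.53, 6.31 and 8.50 and the mutants 6.27, 5.34 and 6.56, so that wild type replicate 2 alone overlapped.

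The arrays numbered 2 shaped the values of the chosen genes in both genotypes. In 46 of the 91 genes (50.5%) replicate 2 was the highest array of wild type and of the mutants, and in 13 (14.3%) it was the lowest of both. Among the other 5118 CG genes the shares were 38.4% and 18.8%, and among the 4684 of them within the range of mean signal of the chosen genes 38.5% and 19.9%. This comparison was not tested. By role, replicate 2 was highest in both genotypes in all 7 early secretory genes and 6 of the 7 other, mostly metabolic enzymes. The same held for 4 of the 8 hydrolases and inhibitors and 0 of 2 transporters. It also held for 1 of the 3 with another role and 28 of the 64 with no role given. Genes with replicate 2 lowest in both were CG18088, CG17290, CG14453, CG42335, CG7567, CG1273, CG17271, CG17110, CG8089, CG6912, CG31191, CG33003 and CG7465. In the 19 overlapping CG genes replicate 2 was lowest in both genotypes in 12 and highest in 6. The demand for separation uses these same values, since a low wild type replicate 2 makes genotypes overlap, so no contrast is drawn between the sets.

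**Figure D4:**
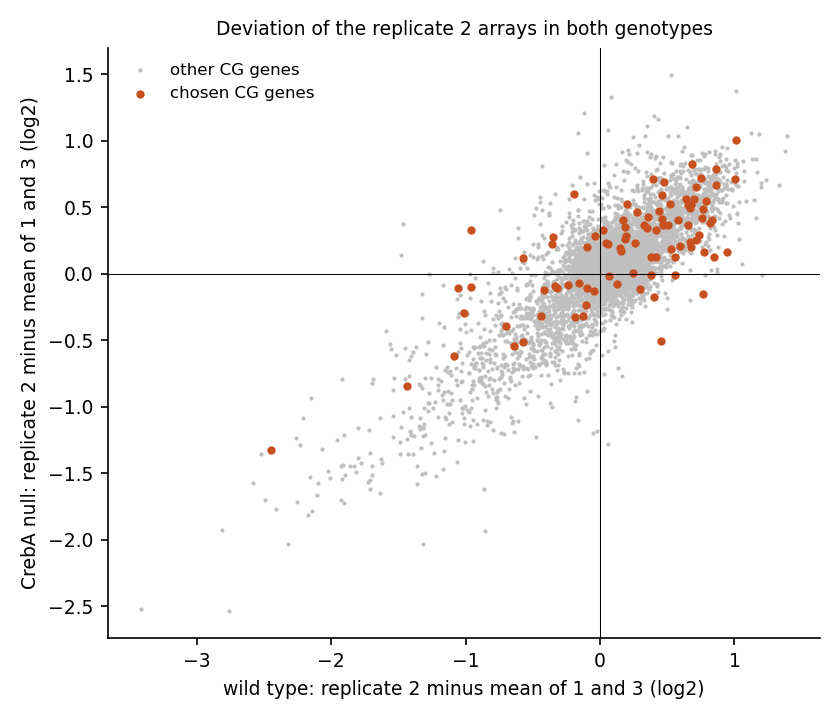
Replicate 2 minus the mean of replicates 1 and 3 in wild type (x, log2) and in CrebA null (y, log2), with 1 point for each CG gene and the 91 chosen genes coloured. The chosen genes run from -2.45 (CG17290) to 1.01 in wild type with a median of 0.36, against a median of 0.08 for the other CG genes.

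Taken between arrays of the same number, 58 of the 91 genes had a difference of -0.8 or less in each of the 3 pairs. The rule chose the genes on these same values and no share over other genes was computed. The count is therefore a description and no evidence of agreement between replicates. The medians of the 91 differences were -1.09, -1.15 and -1.10 for numbers 1, 2 and 3. The least even gene was CG18649, with differences of -1.15, -0.03 and -1.5, and it was the gene of the 91 that was not called with the replicate block. It read 9.89, 8.88 and 9.79 in wild type and 8.74, 8.85 and 8.29 in the mutants, so the number 2 arrays of the genotypes were nearly equal. CG7465 and CG31191 also had small differences for number 2, of -0.28 and -0.29, and CG18581 for number 3, of -0.37.

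More than 1 probe set measured 5 of the genes. In CG9449 the second probe set gave -1.40 beside -1.49, and in CG11905 the others gave -1.04 and -0.999 beside -1.42. CG11905 and CG4293 were read by probe sets marked as shared between transcripts of several genes, and CG33272 by one marked as prone to cross-hybridisation. In CG5174 the probe sets did not move alike. The chosen one gave -1.08, another -0.69 and one more -0.19, from 10.16 ± 0.23 to 9.97 ± 0.08, and the last lay within the foreign controls on every array. The second probe set of CG42335 gave 0.06, from 4.99 ± 0.07 to 5.05 ± 0.22, near the controls throughout. Of the 2 others for CG5768 one gave -0.73 and one, within the controls on every array, 0.01.

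All 91 genes are protein-coding in the RefSeq table and all kept their CG symbol there. Along the chromosomes, CG17780 and CG5768 are direct neighbours with no protein-coding gene between them, and they lie in a run of neighbouring genes that holds CG5762 and CG13614 too. CG17780 read 8.74, 7.77 and 7.95 in wild type and 7.63, 6.49 and 6.38 in the mutants, and CG5768 7.45, 7.42 and 7.03 against 6.48, 6.22 and 5.44. The run was looked at, and its ends were set, after its values were seen. From Golgin84, a gene for a Golgi tether protein, to CG13616 it has 18 protein-coding genes, of which 15 were measured by a probe set of their own, 4 of them chosen genes. Of the 11 others 8 had a negative difference, and the median of the 11 was -0.44. The genes at both ends are among these 8, so the count and the median depend in part on where the run was cut. Nothing is read from them. CG17782, between the chosen genes, gave -0.75 and CG13616, at the end, -1.08, both with overlapping genotypes. CG18528, CG33340 and CG33342 of the same run gave 0.06, 0.02 and 0.01.

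**Figure D5:**
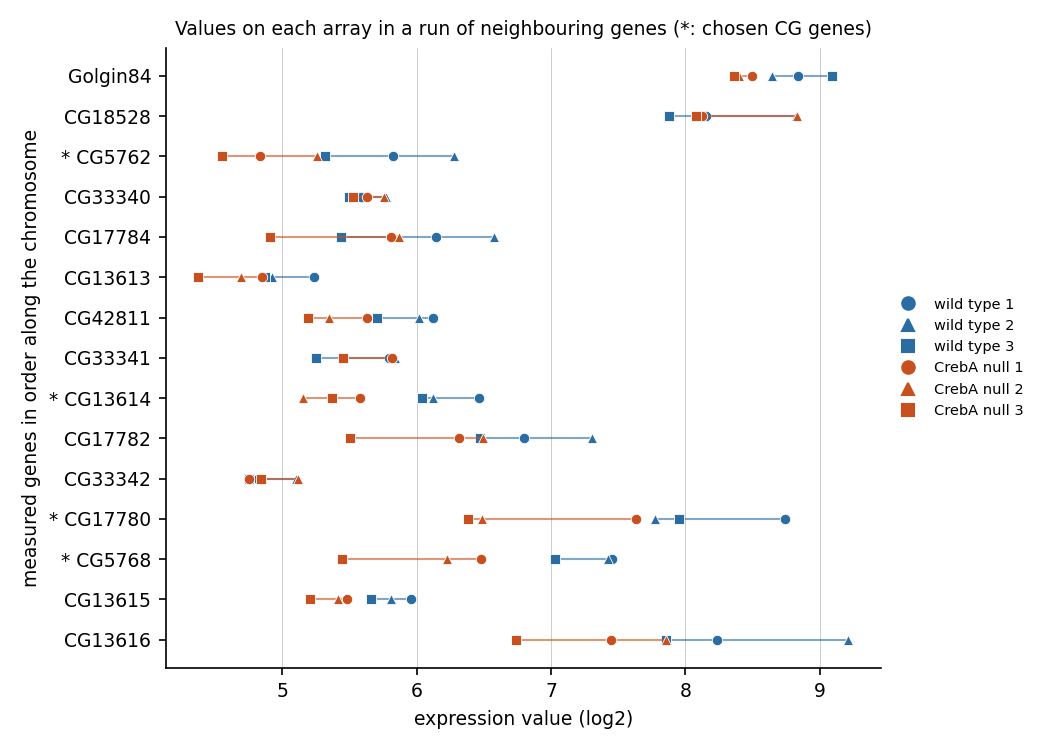
Values on each array (x, log2) of the 15 measured genes in a run of neighbours from Golgin84 to CG13616, in chromosomal order from top to bottom, with the 4 chosen genes starred and symbols as for the secretory genes. Differences range from -1.32 in CG17780 to 0.06 in CG18528, and genes with differences near 0 lie between genes with lower values.

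CG18581 and CG18649 lie 4 protein-coding genes apart in a second run, also looked at after its values were seen. Next to CG18649 lies EAChm, which read 10.48, 8.74 and 10.72 in wild type and 8.54, 7.68 and 8.56 in the mutants. CG13461 of this run gave a positive difference of 0.61. CG14453 lies in another run, between CG12546 and CG14452 and then CG14454 and CG32453 outside them. These flanking genes are read in pairs by shared probe sets and so were outside the rule. The probe set of CG14452 and CG12546 read 10.63, 9.41 and 10.78 against 9.04, 8.76 and 8.91, and those of CG32453 and CG14454 gave -1.34 and -0.87. CG14456, beyond them, gave 0.57.

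Of the direct neighbours of the 91 genes, 164 were measured and not chosen themselves. A neighbour named by a CG number that met the rule is itself a chosen gene, so counts of lower and higher neighbours are not comparable, and the genes are only named. Those lower by the same difference and separation were ImpL1, an ecdysone-inducible gene beside CG14110 (-2.05), EAChm, the p24 family gene loj beside CG10467 (-1.33) and TM9SF3 beside CG10591 (-0.81). Those higher by the same measure were CG42788 beside CG6912 (0.87), jdp beside CG9698 (0.96), Lip1 beside CG7300 (0.96) and hdly beside CG31191 (0.99).

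Markers of embryonic tissues were read beside these results. Of 42 genes in 11 lists 35 were measured, and 3 were called lower and 2 higher, or 7 and 8 with the replicate block. Over all genes 1.02% were called lower, or 9.21% with the block. The share of all genes called higher was not computed, so nothing is read from the counts of marker calls. The summed level of the 4 midgut genes ran from 11.27 to 11.83 in wild type and from 8.65 to 8.98 in the mutants (log2 of the sum), with mex1 at -3.84 and called lower. The median of the midgut differences had the opposite sign, at 0.17, with alphaTry called higher at 1.28. That median lies between Mdr50 at 0.06 and betaTry at 0.28. Mdr50 read 4.61 to 4.87, at the level of the foreign controls, and betaTry 5.45 to 6.14, little above them. The sign of the midgut median therefore rests on dim signals. All 5 salivary gland genes had negative differences, with 0 called without the block and 2 with it, and sums of 10.91 to 11.20 against 10.66 to 10.80. The differences ran from -0.97 in sage, a salivary gland transcription factor gene, to -0.01 in PH4alphaSG2. The gene sage read 7.75, 8.14 and 7.47 in wild type and 6.78, 6.94 and 6.73 in the mutants, with no overlap. The trachea sums were 12.62 to 12.78 against 12.54 to 12.79, and those of epidermis and cuticle 12.46 to 13.93 against 13.15 to 14.23. The 5 epidermis and cuticle genes went both ways, from -0.80 in Cpr49Ac to 0.70 in TwdlF. Of them 3 had a negative difference, with a median of -0.07, and 1 was called lower and 2 higher with the block. Glial sums ran from 11.42 to 11.69 against 10.85 to 11.10 with nrv2 called lower. The glial genes did not move alike, with -0.92 in nrv2, -0.56 in repo and 0.35 in moody. Fat body sums ran from 12.27 to 13.73 against 12.45 to 13.52 with Mtp called lower. There Mtp gave -1.04, Fbp1 -0.24 and apolpp 0.12. Neuron, muscle and haemocyte markers had median differences of 0.17, 0.55 and 0.07. The 1 Malpighian tubule gene measured, VhaSFD, was called higher at 0.62. The germline gene vas lay within the foreign controls on all arrays. The part of these tissues in the values of the 91 genes was not tested.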

How the data were processed

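The deposited table holds RMA expression values for 18952 probe sets on 6 arrays, 3 for each genotype. The submitters' processing notes name RMA and Partek without versions, and the authors' deposited values were read as log2 because of their range. No value was normalised again. Gene symbols came from the platform annotation: of 18769 that are not Affymetrix controls 13647 had 1 symbol, 402 several and 4720 none. RefSeq (Release 6) was used for gene order, gene type and synonyms, with no coordinates printed.

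The genotype difference was fitted in R 4.3.3 by limma 3.58.1 (lmFit, eBayes, a two-sided test). Adjustment after Benjamini-Hochberg covered all 18769 probe sets, with a call at an adjusted p under 0.05. The fit was run on simulated data with independent noise on each array, and only the size of its estimates was checked. Such data lack the pattern of the replicate 2 arrays, so this check does not bear on the calls. Where all mutant values lay at or below the highest of 17 Tag controls of their arrays, a lower bound of the fold was given. For it the wild-type mean was set against the mean of these highest controls on the mutant arrays only. No bound was given where wild type did not exceed the controls. The bound compares means and does not take in the spread of the wild-type arrays.

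The members, the lists and the rule for named genes were chosen with earlier results of these data known. Named were the 15 largest differences, the 6 highest signals, 6 genes on each side of the threshold, direct neighbours, genes whose probe sets disagreed and 14 secretory genes. Others were named for a role or a place after their values were seen. Parts of that rule that needed protein or promoter sequences were not used here.

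Titles give replicate numbers 1 to 3 in both genotypes. Deviations from the genotype means correlated between same-numbered arrays with r of 0.639, 0.852 and 0.563 over probe sets, above the bar of 0.1 for treating the numbers as pairs. Numbers 1 and 3 also correlated crosswise, with r of 0.566 and 0.371. These values pass the same bar, so it does not show that numbers 1 and 3 are pairs. The block is therefore given beside the unblocked count. Plots were made in python 3.11.15 by matplotlib 3.10.9.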

Additional observations from a re-analysis of the deposited data

How the results depend on the processing

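The number of CG genes that met the rule was 91 and depended on its edge, at 146 with a threshold of -0.6 and 56 with -1. Leaving out 1 array gave 82 to 134 genes, which held 72 to 89 of the 91. The lowest overlap, 72, came without wild type replicate 2, and 77 of 104 were shared without replicate 2 of both genotypes. Median centring gave 112 genes with all 91 among them, and quantile normalisation 95 with 87. Median centring lowers every difference by the same amount here, so none of the 91 could fail the threshold by it. The number of the 91 called by limma was 35. It became 90 with the replicate block, 68 at an adjusted p under 0.1 and 63 without replicate 2 of both genotypes. Leaving out 1 array gave 7 to 27 calls, with 7 without wild type replicate 1 and 7 without CrebA null mutant replicate 1, 10 without CrebA null mutant replicate 3 and 19 without wild type replicate 3. The cause was not tested. Of 450 recomputed differences of 45 named genes, 447 stayed within 1 SD of the reported value and none changed sign. The others were CG13738 without both replicate 2 arrays (-2.31) and, with a gene's probe sets averaged, CG42335 (-1.02) and CG5768 (-0.66). These counts were largely fixed in advance and are no evidence of stability. Leaving out 1 array cannot move a difference by the pooled SD of the genotypes, nor change its sign where genotypes do not overlap. Averaging probe sets changes nothing for a gene with 1 probe set. Keeping genes with a mean of at least 6 left 72. Of the 19 removed, 10 had a mutant value within the foreign controls, where signal over background limits the difference.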

Other observations

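Signals outside the rule were also lower in the mutants. Of 274 probe sets that list several genes with a CG number among them, 7 met the same difference and separation. Besides the probe sets around CG14453 they include that of Edem1, which encodes a factor of ER-associated degradation, and CG32801, at 7.96, 8.07 and 7.82 in wild type and 6.72, 6.93 and 6.38 in the mutants. That of Fuca, an alpha-fucosidase gene, and CG11714 gave -0.97, that of the COPI coat subunit gene zetaCOP and CG5946 also gave -0.97, and that of CG15024 and Pdh gave -1.21. Within each such probe set the genes cannot be told apart. A probe set of zetaCOP alone read 8.28, 8.84 and 7.57 against 6.72, 7.19 and 6.50 (-1.43). Of 4720 probe sets with no gene in the annotation 28 met the same difference and separation, with the largest difference at -3.77.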
